A study of Mus musculus with 3 samples.

Results

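The genes described here lie almost wholly inside exons of a gene on the other DNA strand. The exons of each gene in the deposited annotation columns were merged, and a gene was kept when at least 90% of its exonic length lay under exons of genes on the opposite strand. The opposite-strand gene sharing the most bases with it was taken as its host. Of 50600 genes in the count files, 575 met this rule, in 531 hosts. Of these hosts, 507 held 1 embedded gene and 24 held more, up to 6 in Six3os1 and in Nlrp12, so pairs in 1 host share a source and are not independent of each other. Of the embedded genes, 449 were covered along their whole length, and 42 had a host that itself met the rule.

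The study measured total RNA by sequencing in mouse T helper 1 cells, the CD4+ T cell type that makes interferon gamma. The 3 libraries form 1 group of primary C57BL/6NJ cells, with 48 h given in the file headers. The labels give the age as unknown, record no sex and name the same donor for all 3. Replicates 1, 2 and 3 held 4742025, 50627 and 3543816 counts. The p-values below therefore measure only counting error within a library or the spread between these libraries, which may be technical. The labels name total RNA as the material, but a linked document on library construction carries poly(A)+ RNA in its name. There is no second condition, so the comparisons are between each embedded gene and its host, and between libraries.

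Both strands of a stretch of DNA can be transcribed, and an RNA made from the strand opposite a gene is called antisense to it. Antisense RNAs can act on the chromatin or transcription of their neighbour or can pair with its RNA, and many annotated ones have no known role. Where exons of both strands overlap, a sequenced fragment can be given to one gene or the other only by its strand. The authors counted with the strand setting 1, in which the first read of a pair must lie on the strand of the gene. Which strand each fragment came from was not tested here, and the library kit is not given in the sources used here. If the first reads of these libraries lie on the opposite strand, the fragments counted for an embedded gene came from the strand of its host, and the direction of every embedded-to-host ratio, share and ranking below would be open to reversal. Turned values are not given, since the counts do not show which fragments of a host lay outside the overlap.

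The sequences below were chosen because they show what an embedded gene shares with its host. They come from GENCODE M21 transcripts on GRCm38 (mm10), are written 5′ to 3′ and lie on the strand stated. Gm44364 (chr6:136808543-136808683, minus strand) and Gm44335 (chr9:44334965-44335105, minus strand) are annotated as miRNA genes and lie in the coding exons of H2afj and H2afx, which encode variants of histone H2A. The 2 sequences have 133 of 141 bases in common (94.3%), and capitals mark the bases that differ.
Gm44364: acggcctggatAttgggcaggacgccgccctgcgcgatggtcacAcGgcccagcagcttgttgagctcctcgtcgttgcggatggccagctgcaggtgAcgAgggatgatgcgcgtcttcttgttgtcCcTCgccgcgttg
Gm44335: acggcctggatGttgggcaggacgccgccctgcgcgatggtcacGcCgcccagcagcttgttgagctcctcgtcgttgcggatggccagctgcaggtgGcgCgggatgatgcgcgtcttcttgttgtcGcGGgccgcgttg
The exact reverse complement of Gm44364 was present in 2 of 2 H2afj transcripts, and that of Gm44335 in 1 of 1 H2afx transcripts.

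Gm20721, annotated as protein-coding, is embedded in Gnas, which encodes the alpha subunit of the stimulatory G protein. Of its 12 introns, 7 had the same ends as a Gnas intron. The 30 bases on either side of 1 shared junction (chr2:174345533-174345678, across an intron of 86 bp) are shown for both genes, with capitals marking the bases that flank the junction.
Gm20721 (minus strand): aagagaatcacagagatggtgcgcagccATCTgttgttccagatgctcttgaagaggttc
Gnas (plus strand): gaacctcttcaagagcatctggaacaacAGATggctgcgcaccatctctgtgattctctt
Gm11175 is annotated as antisense to Jund, a subunit of the AP-1 transcription factor, and has 1 intron of 120 bp of its own inside the single coding exon of its host. The 40 bases around each end of it are shown (chr8:70699596-70699635 and chr8:70699476-70699515, minus strand), with the first and last bases of the intron in capitals.
Gm11175 5′ end of the intron: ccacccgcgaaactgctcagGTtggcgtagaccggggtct
Gm11175 3′ end of the intron: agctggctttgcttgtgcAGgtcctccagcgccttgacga

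Embedded miRNA loci with RefSeq entries (GRCm38.p6) show both directions described below. Mir762 (chr7:127708487-127708562, plus strand) lies in Bcl7c. Mir142 (chr11:87756864-87756927, plus strand) lies opposite Mir142b, and Mir24-1 (chr13:63301208-63301275, plus strand) opposite Mir3074-1. Capitals mark the seed, bases 2 to 8, which selects the target messages. The seeds of all 7 differ from one another.
mmu-miR-762: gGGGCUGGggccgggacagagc
mmu-miR-142a-5p: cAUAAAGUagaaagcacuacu
mmu-miR-142a-3p: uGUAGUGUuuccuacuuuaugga
mmu-miR-142b: uCCAUAAAguaggaaacacu
mmu-miR-24-1-5p: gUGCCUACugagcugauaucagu
mmu-miR-24-3p: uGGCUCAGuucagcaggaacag
mmu-miR-3074-5p: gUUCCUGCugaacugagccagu
Of the 148 embedded miRNA genes, 73 were matched in the RefSeq table.

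The embedded genes were short. Their merged exons had a median length of 352 bp, from 39 to 6243 bp, against a median of 3863 bp for the hosts, and 373 had a single merged exon. By GENCODE biotype they included 148 miRNA, 102 antisense, 78 processed pseudogene, 55 lincRNA and 49 protein-coding genes. Of the hosts, counted once per embedded gene, 372 were protein-coding, and 121 embedded genes lay mainly in coding sequence, 141 in 3′ untranslated sequence and 38 in 5′ untranslated sequence. The other exonic contexts were mostly exons of non-coding transcripts.

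The embedded genes made up 0.302% of the exonic length of all genes. They received 160248, 2094 and 205074 counts in replicates 1, 2 and 3. These were 3.38% (exact 95% binomial interval 3.36 to 3.40), 4.14% (3.96 to 4.31) and 5.79% (5.76 to 5.81) of all counts. Replicate 3 had the highest share and replicate 1 the lowest, and the intervals, which cover counting error only, did not overlap. At least 1 count was present for 322, 167 and 327 embedded genes, and for 304 in both deep libraries. Of the 230 with no count in any library, 93 were miRNA genes. A count of 0 allows up to 0.633, 59.3 and 0.847 counts per 1000000 counts of the library (CPM) in replicates 1, 2 and 3, from 3 counts in each library.

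For each pair with at least 20 counts in a library, counts per kb of merged exons were compared by an exact two-sided binomial test with Benjamini-Hochberg adjustment over all opposite-strand pairs of that library, at an adjusted p of 0.05. In replicate 1 the embedded gene was higher in 213 of 298 pairs and the host in 52, where the gene was called higher in 43.5% and the host in 46.4% of all 5184 opposite-strand pairs tested. In replicate 3 the embedded gene was higher in 221 of 299 pairs and the host in 50, beside 44.7% and 47.4% of all 5142 pairs. In replicate 2, which had few counts, the embedded gene was higher in 36 of 50 pairs and the host in 7, beside 36.5% and 41.4% of all 819 pairs. The direction of the majority was the same in all 3 libraries. In the set of all opposite-strand pairs, each overlapping gene entered with its own main partner, so 1 pair of genes can enter in both orientations. This draws the 2 overall shares together, and their near balance is no independent background for the embedded pairs.

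On a log2 scale the embedded gene exceeded its host, per kb and with 0.5 counts added to each, by a median over pairs of 3.82, 4.96 and 5.25 in replicates 1, 2 and 3. The mean of these medians was 4.68 ± 0.76 (SD, n = 3). All 3 medians were above 0. Flipping the signs of the 3 medians in all ways, an exact two-sided test, gave p = 0.25, the smallest it can give with this number. In the median pair the embedded gene held 49.2%, 81.4% and 74.0% of the pair's counts and 7.15%, 8.57% and 7.43% of its exonic length. A counter that accepts any fragment touching a gene raises the value per kb of short genes. Without division by length the calls in replicate 1 were 129 for the embedded gene and 132 for the host, so the majority was lost there. In replicates 2 and 3 they were 31 against 16 and 168 against 104.

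Of the 292 pairs tested in both deep libraries, the embedded gene was called higher in both in 206 and the host in both in 46. These are called majority and contrary pairs below. Of the other 40 pairs, 2 were called in opposite directions in these libraries, and the rest were called in 1 library or in neither. For 9430098F02Rik in Ppp2ca the log2 ratio was -0.25 in replicate 1 (adjusted p = 0.0036, exact binomial test) and 1.45 in replicate 3 (adjusted p = 1.1e-47). For Gm27022 in Hnrnpr it was -2.96 (adjusted p = 2.3e-06, exact binomial test) and 0.92 (adjusted p = 0.035). Of the 49 pairs tested in all 3 libraries, 35 were called for the embedded gene and 7 for the host in each. The plot of host level against embedded level shows the calls of each library.

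**Figure D1:**
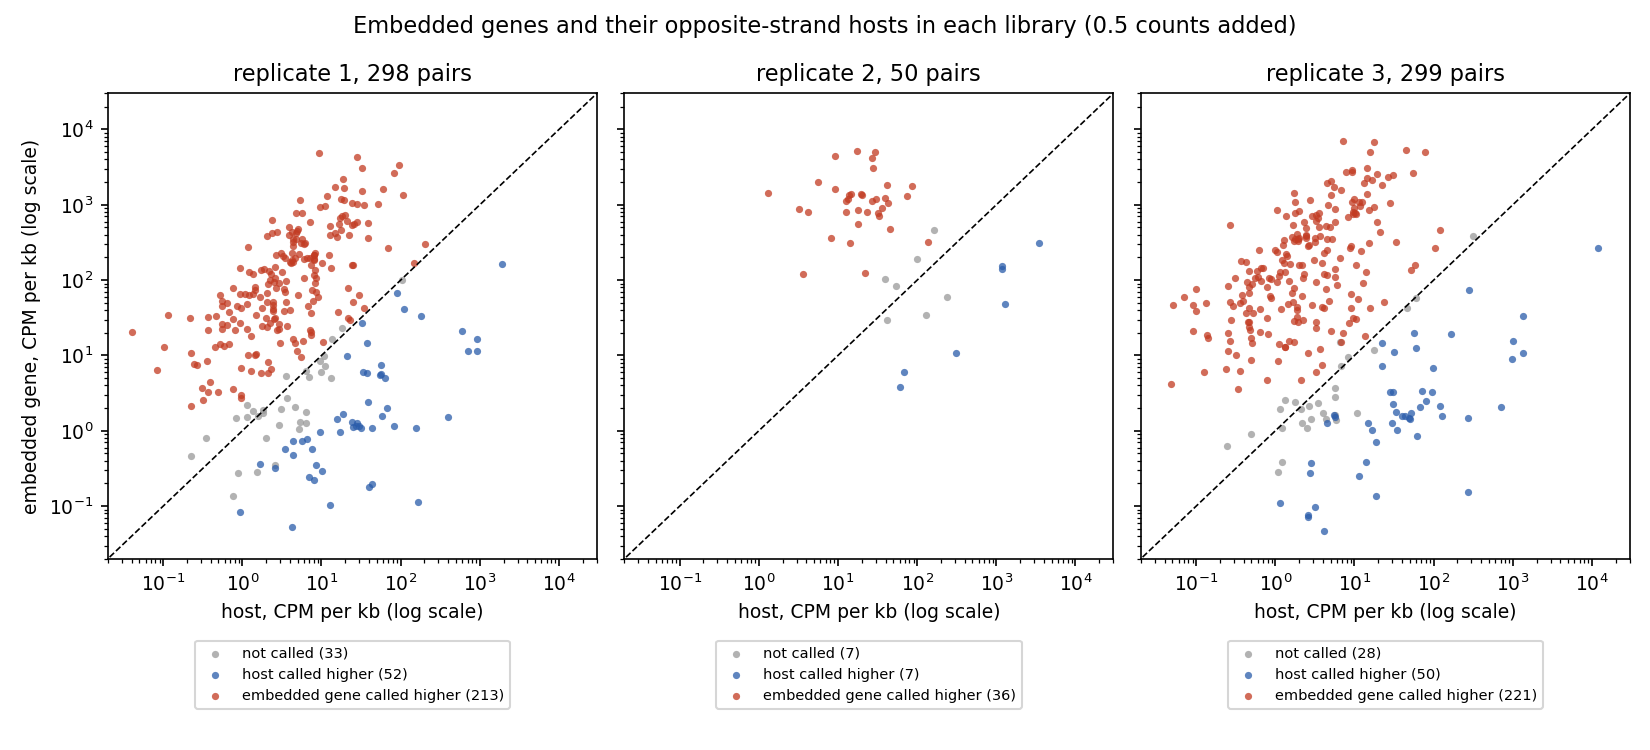
Level of each embedded gene (vertical axis) against its host (horizontal axis), both in CPM per kb of merged exons on log scales with 0.5 counts added, in 1 panel per library. Each point is a pair with at least 20 counts in that library, red where the embedded gene was called higher, blue where the host was and grey otherwise, and the line marks equal levels. In replicate 1, 213 of 298 pairs are red and 52 blue, and in replicate 3, 221 of 299 are red and 50 blue.

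Over all tested pairs, Pearson's r between the log2 levels per kb of embedded gene and host was 0.16 in replicate 1, -0.46 in replicate 2 and -0.01 in replicate 3. These are descriptions across pairs that share a library, and both genes of a pair share base composition. Within the majority pairs r was 0.70 in replicate 1, 0.06 in replicate 2 (35 pairs) and 0.64 in replicate 3. Keeping only pairs with the embedded gene above its host itself pushes r upwards. In the majority pairs the log2 ratio lay between 2.10 and 6.71 (10th and 90th percentile) in replicate 1, and between 3.40 and 8.45 in replicate 3.

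The share of genes higher than their opposite-strand partner rose with the share of the gene that lay under it. In replicate 1 the gene was called higher in 32.7% of pairs in which up to 10% of its exonic length was covered, 49.6% from 10 to 50%, 63.9% from 50 to 90% and 71.5% at 90% or more. The corresponding values in replicate 3 were 32.6%, 51.6%, 66.8% and 73.9%, and in replicate 2 they were 20.5%, 38.9%, 55.9% and 72.0%. The order was the same in all 3 libraries. Since 1 pair of genes can enter in both orientations, a covered gene in a high class can place its partner in a low class with the opposite call. The classes are thus not independent of each other, and gene length was not held fixed between them. Genes just inside the threshold of 90% included Gm26669 in Zfp36l1 (92.5% covered, log2 ratios 4.86, 4.62 and 6.54) and Gm37401 in Rhoa (93.4%). Just outside were Gm16229 in Nab2 (85.2%, log2 ratios 3.83, 3.36 and 4.79), Gm17344 in Ap1g1 (87.3%) and Gm43126 in Ccnd2 (86.7%).

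The 20 pairs with the highest embedded signal were ranked by mean CPM per kb over the libraries. Each had at least 20 embedded counts in each of replicates 1 and 3. They held 52.8%, 45.5% and 51.7% of all counts of embedded genes in replicates 1, 2 and 3. By biotype the embedded genes were 12 antisense, 5 miRNA, 2 protein-coding and 1 pseudogene, and 14 of the 20 had 2 exons. They lay in 3′ untranslated sequence in 10 pairs, in coding sequence in 8 and in other exons in 2. The embedded gene was called higher in all 20 in replicates 1 and 3, so all were majority pairs. In replicate 2, 15 had enough counts and the embedded gene was called higher in all 15. The ranking did not use the direction, but choosing by a high embedded level in these same libraries itself favours such calls. The grouping of their hosts by function below was made after their values were seen.

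**Figure D2:**
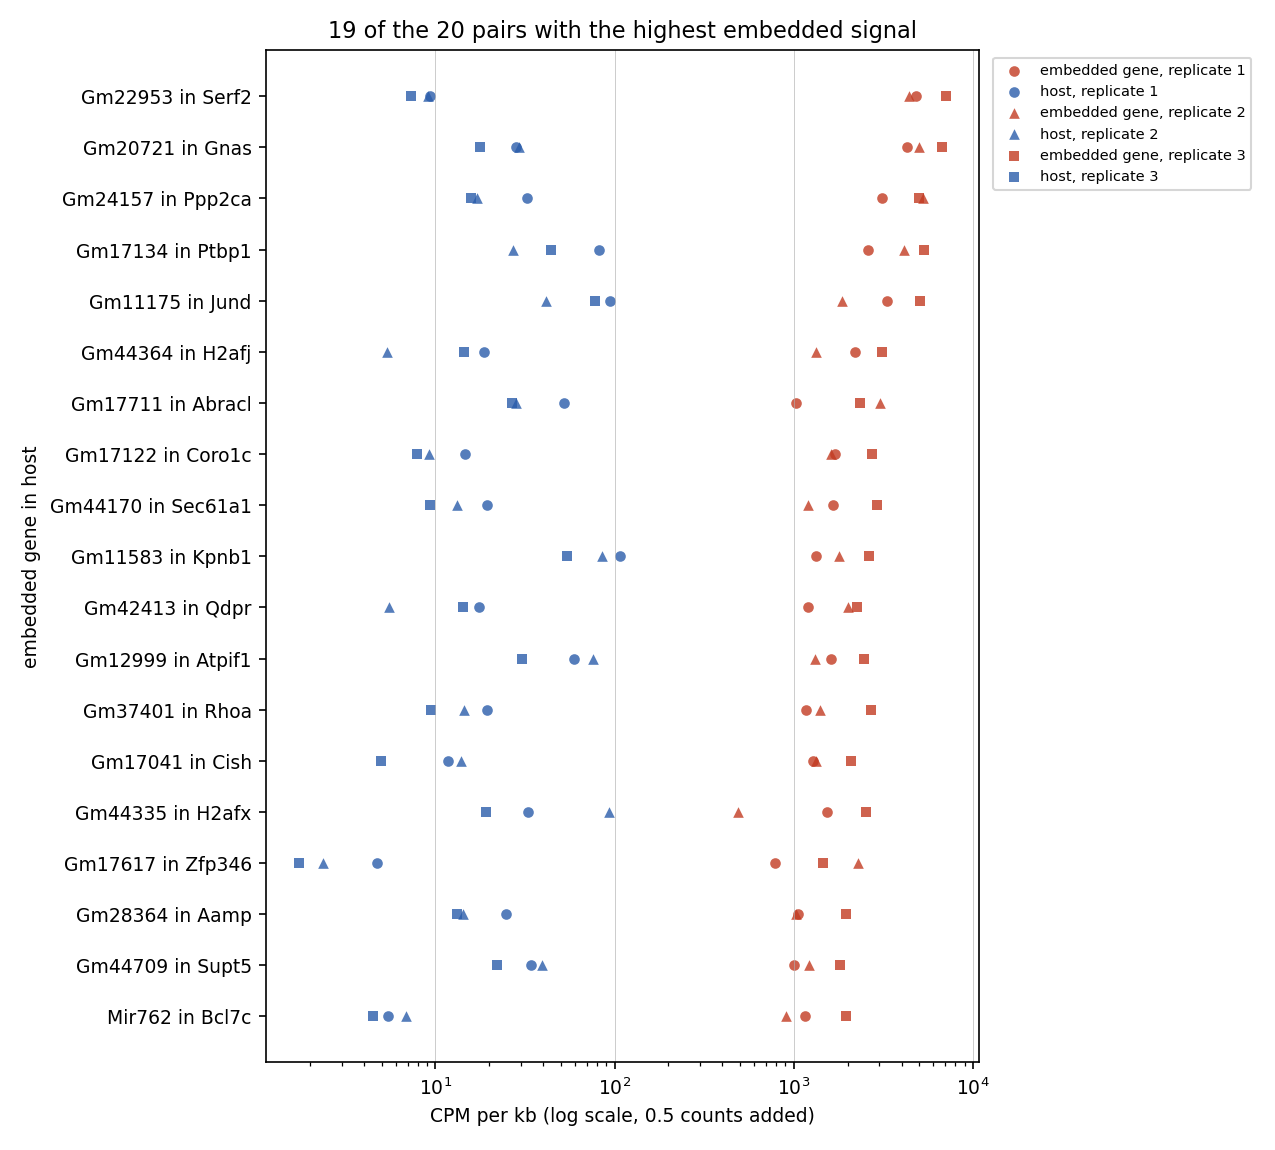
Level in CPM per kb (log scale, 0.5 counts added) of the embedded gene and its host in 19 of the 20 pairs with the highest embedded signal, 1 point per gene and library. Embedded genes lie between 784 and 4838 CPM per kb in replicate 1, and their hosts between 4.70 and 107.

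Of these hosts, 4 act in signalling, with mean log2 ratios from 6.89 to 7.74. Gm20721 (chr2:174330319-174346712, minus strand) in Gnas held 30152, 374 and 35521 counts, against 1493, 16 and 706 for Gnas. This was 95.3%, 95.9% and 98.1% of the counts of the pair in replicates 1, 2 and 3. Gm20721 held more counts than any other embedded gene in replicates 1, 2 and 3, and its level was 5339 ± 1270 CPM per kb (SD, n = 3). Gm24157 (chr11:52099043-52099153, minus strand), annotated as a miRNA gene, lies in a coding exon of Ppp2ca, which encodes the catalytic subunit of protein phosphatase 2A. It held 1635, 29 and 1969 counts against 1155, 6 and 417, with log2 ratios of 6.58, 8.26 and 8.31. A second gene embedded in Ppp2ca, 9430098F02Rik in the 3′ untranslated part, held 387, 8 and 453 counts and changed its direction between the deep libraries, as given above.

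Gm37401 (chr9:108337089-108338273, minus strand) lies in the 3′ untranslated part of Rhoa, a small GTPase of the actin cytoskeleton. It held 1932, 24 and 3309 counts against 687, 5 and 250 for Rhoa. Gm17041 (chr9:107300380-107301838, minus strand) lies in coding sequence of Cish, a cytokine-induced inhibitor of STAT signalling in T cells. It held 2928, 32 and 3564 counts against 357, 4 and 113, with log2 ratios of 6.78, 6.60 and 8.72. In each of these 4 pairs the embedded gene was above its host per kb in every library, which the choice by a high embedded level favours.

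Hosts of gene regulation formed the next group, with mean log2 ratios from 5.39 to 9.00. Gm17134 (chr10:79863937-79864434, minus strand) lies in the 3′ untranslated part of Ptbp1, a repressor of splicing. It held 5413, 91 and 8225 counts against 1830, 6 and 744, with log2 ratios of 5.00, 7.25 and 6.90. Gm11175 (chr8:70699162-70700080, minus strand), whose intron ends are printed above, held 13839, 82 and 15696 counts against 743, 3 and 462 for Jund. Its log2 ratios were 5.15, 5.49 and 6.01. Gm44709 in Supt5, a transcription elongation factor, had a mean log2 ratio of 5.39 ± 0.84 (SD, n = 3). Gm17617 in Zfp346 is only 39 bp long. Its level of 1419 ± 621 CPM per kb rested on 145, 4 and 200 counts, against 93, 0 and 25 for the host. Replicate 2 was not tested for it.

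The histone pair printed above lay in the opposite strand of coding sequence of both H2A variants. Gm44364 held 1462, 9 and 1552 counts against 161, 0 and 93 for H2afj, and its level was 2184 ± 923 CPM per kb (SD, n = 3). Gm44335 held 1027, 3 and 1273 counts against 214, 6 and 93 for H2afx. In replicate 2 neither pair had enough counts for the test. The log2 ratios of Gm44335 were 5.56, 2.40 and 7.06, the widest spread over libraries among the 20 pairs (SD 2.38). Reads from such similar sequences can be hard to place, and their assignment to 1 of the 2 genes is uncertain.

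Protein transport, the cytoskeleton and metabolism gave further hosts. Gm44170 in Sec61a1, the channel of the endoplasmic reticulum, held 4303, 33 and 5700 counts against 621, 4 and 222. Gm11583 in Kpnb1, the nuclear import receptor importin beta, held 2941, 42 and 4356 counts against 3358, 28 and 1271. It had the lowest mean log2 ratio of the 20, at 4.54 ± 0.99 (SD, n = 3), and Kpnb1 had the highest host level of the 20 in replicate 1, 107 CPM per kb. Gm17122 in Coro1c, an actin-binding protein, held 3005, 30 and 3616 counts against 669, 4 and 268. Gm17711 in Abracl, the other cytoskeletal host, had a mean log2 ratio of 5.84. In metabolism, Gm42413 in Qdpr, which regenerates tetrahydrobiopterin, and Gm12999 in Atpif1, the inhibitor of the mitochondrial ATP synthase, had mean log2 ratios of 7.31 and 5.08.

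Of the hosts in no such group, Serf2 held the embedded gene with the highest signal of all, Gm22953 (chr2:121450670-121450770, minus strand), annotated as a miRNA gene in coding sequence. It held 2317, 22 and 2550 counts against 242, 2 and 140, with log2 ratios of 9.01, 8.93 and 9.94. Mir762, whose mature sequence is printed above, held 414, 3 and 528 counts against 185, 2 and 114 for Bcl7c, a subunit of a chromatin remodelling complex. Its log2 ratios were 7.73, 7.06 and 8.78, of which the second had too few counts for the test. By its role Bcl7c could also stand with the hosts of gene regulation, whose range above was taken without it. Gm28364 in Aamp had a mean log2 ratio of 6.28.

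Fixed lists of host functions held 75 of the 575 embedded genes, with 500 in hosts on no list. The list of signalling hosts had 10 embedded genes, of which 8 were majority and 1 contrary, and held 23.4% of the counts of embedded genes in replicate 1. It held Gnas, Ppp2ca and Rhoa but not Cish, and included Gm28033 in Ppp1r18 (326, 4 and 409 counts against 370, 5 and 149), and Mir6340 in Rab22a (286, 2 and 485 against 133, 1 and 69). The list of chromatin and transcription hosts had 42, of which 24 were tested, 22 were majority and 2 contrary. Zfp36l1 promotes decay of AU-rich messages and is on this list by its symbol alone. Gm26669, embedded in it, held 5277, 96 and 6875 counts against 301, 6 and 122. No ribosomal protein gene was a host.

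The T cell and immune list had 8 embedded genes, and all 3 that were tested in both deep libraries were majority pairs. BC023719 in H2-T10 held 145, 0 and 151 counts against 42, 0 and 22. A930015D03Rik in H2-T22, like H2-T10 a non-classical class I gene, held 80, 3 and 77 counts against 168, 1 and 87, with log2 ratios of 0.55 and 1.44 in replicates 1 and 3. Gm44397 in Tnfaip8l1 held 65, 1 and 89 counts against 15, 0 and 11. Gm12214, opposite the Th2 cytokine gene Il5, held 12, 1 and 31 counts against 3, 0 and 0, and was tested only in replicate 3 (adjusted p = 2.5e-21, exact binomial test). Opposite Il21, Gm12534 held 2, 0 and 0 counts against 10, 0 and 5, too few to test. The embedded genes of this list thus held few counts, 0.19% of those of all embedded genes in replicate 1. This share covers only hosts matched by symbol and is no measure of all immune hosts. The list leaves out Cish, for example. Gm17041 in Cish, described above, alone held more counts in replicate 1 than the embedded genes of this list together.

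RNA processing hosts had 4 embedded genes, of which 3 were majority. Cox20 (chr1:178319130-178322693, plus strand), an assembly factor of cytochrome oxidase and one of few embedded genes with a known protein, lies opposite the 3′ untranslated part of Hnrnpu, a nuclear RNA-binding protein. It held 700, 14 and 836 counts against 8037, 80 and 4231, so that the embedded gene had fewer counts but a higher level per kb. Its log2 ratios were 0.20 in replicate 1 (adjusted p = 0.00094, exact binomial test), 1.24 (adjusted p = 0.01) and 1.38 (adjusted p = 9.8e-113). This is a small difference beside the median of 3.82 in replicate 1. Gm20481 in the heat shock gene Hspa1a held 20, 0 and 34 counts against 3, 0 and 1. The mitochondria and metabolism list was the only one with more contrary than majority pairs among its 3, Gm10491 in Timm17b against Rangrf in Slc25a35 and Gm22504 in Timm10b.

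By the part of the host that was covered, 55 of 60 pairs in coding sequence were majority and 2 contrary, 81 of 97 in 3′ untranslated sequence were majority and 6 contrary, and 12 of 24 in 5′ untranslated sequence were majority and 4 contrary. In other exons 58 of 111 were majority and 34 contrary. By main kind of embedded gene, the majority took 112 of 132 long non-coding genes, 23 of 34 protein-coding genes, 22 of 42 pseudogenes and 46 of 80 small RNA genes. Contrary pairs numbered 9, 8, 8 and 21 in the same order. In protein-coding hosts 180 of 236 pairs were majority and 22 contrary, and in other hosts 26 of 56 were majority and 24 contrary. Of 6 protein-coding genes in non-coding hosts, 0 were majority and 4 contrary. Differences between these classes were not tested, since pairs that share a host are not independent.

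**Figure D3:**
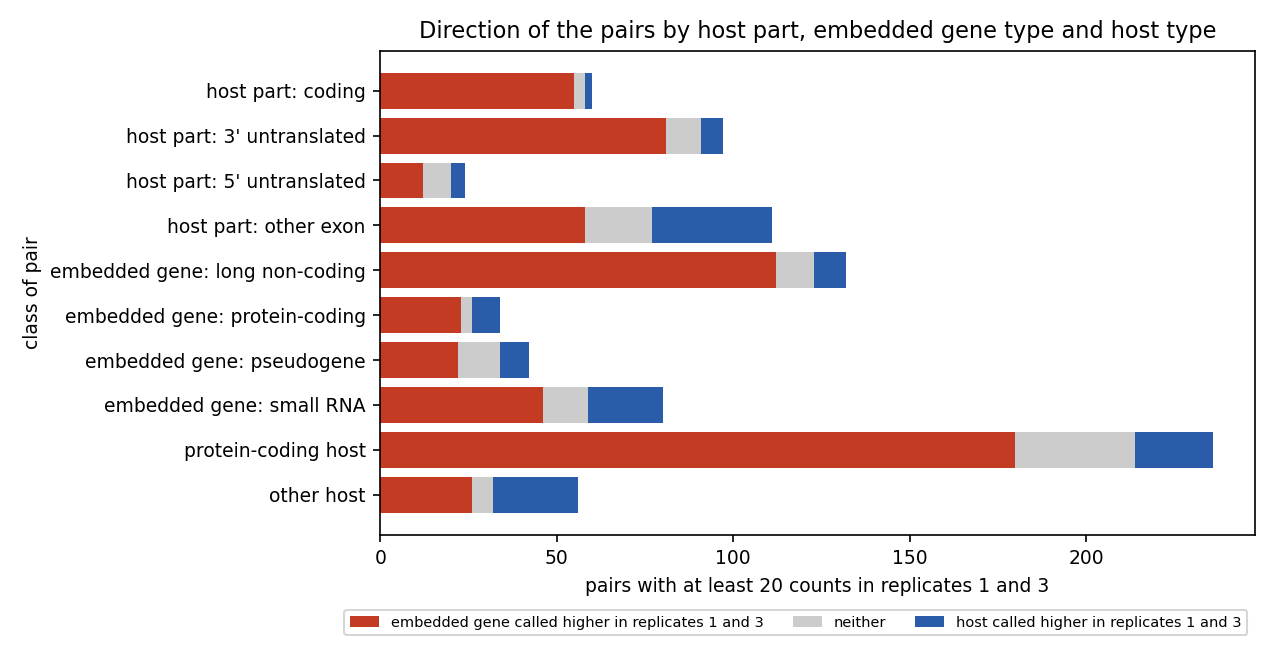
Number of pairs (horizontal axis, of 292 with at least 20 counts in replicates 1 and 3) by part of the host covered, kind of embedded gene and kind of host. Red is the embedded gene called higher in both libraries, blue the host, grey the rest. Blue takes 34 of 111 pairs in other exons and 2 of 60 in coding sequence.

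The 46 contrary pairs, in 45 hosts, ran against the majority. In 19 of them the embedded gene had no count in any library. In 25 the host also shared exons with another opposite-strand gene, which was protein-coding in 22, and in 10 at least 50% of the embedded gene lay under exons of a gene on its own strand. A fragment touching genes of the same strand is given to neither by the counting used, and its part in these pairs was not tested. Neither feature was present in 21 of the 46. Among majority pairs the host had another opposite-strand partner in 70, and 4 embedded genes lay 50% or more under same-strand exons.

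The host with the highest level was CT010467.1, annotated as ribosomal RNA, opposite Gm42418. The host held 22230, 426 and 103032 counts and Gm42418 1439, 28 and 1749. The log2 ratios were -3.52, -3.47 and -5.45. The level of CT010467.1 in replicate 3 stood apart from the other libraries, at 2.63 higher than replicate 1 on the log2 CPM scale. AY036118, which lies opposite Gm42418, held 0 counts in each library, and its exons lie under those of CT010467.1 on its own strand. Ribosomal RNA exists in many copies, so the place of such reads is uncertain.

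Small RNA genes opposite hosts that were assigned many counts formed the next group. Snord42a and Snord4a guide ribosomal RNA methylation, and both lie in introns of Rpl23a, a ribosomal protein gene on their strand whose exons face Tlcd1. Tlcd1 held 21621, 299 and 23978 counts, Snord42a 3, 0 and 2, and Snord4a 5, 0 and 8. Rpl23a itself held 5089, 36 and 2300. Snora73b, inside Snhg3, held 20, 0 and 6 counts against 4261, 99 and 5307 for its host Gm17300, with log2 ratios of -4.80, -4.74 and -6.78. All 3 small RNA genes were below their host in every library.

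Mir142, a microRNA locus of blood cells, held 3, 0 and 3 counts, while Mir142b on the other strand of the same hairpin held 381, 2 and 413. The adjusted p was 1.1e-67 in replicate 1 and 7.9e-74 in replicate 3 (exact binomial test), with too few counts for a test in replicate 2. Mir24-1 held 0 counts in each library, against 23, 0 and 20 for Mir3074-1. Counts of a hairpin gene are of fragments that touch it and are not counts of the mature miRNA. Mir7071 opposite Gm9988, Gm27920 opposite Gm4129 and Gm47279 opposite 1700030C12Rik likewise held 0 counts, with 812, 467 and 463 counts for their hosts in replicate 1. Each of these 3 hosts also faces a protein-coding gene, Heatr3, Usp15 and Ahsa2.

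Protein-coding genes with known roles were the embedded member of several contrary pairs. Med10 (chr13:69809882-69816094, plus strand), a subunit of the Mediator complex, held 170, 1 and 58 counts against 2650, 33 and 3035 for the lincRNA Gm26819. Its log2 ratio was -1.39 in replicate 1 (adjusted p = 2e-44, exact binomial test), -1.91 in replicate 2 (adjusted p = 0.1) and -3.12 in replicate 3 (adjusted p = 8.1e-130). Pdcd2 held 180, 0 and 115 counts against 2360, 41 and 2856 for Tbp, the TATA-binding protein, and was called lower in all 3 libraries. Icam4, an adhesion molecule of red cells, held 10, 0 and 8 counts against 1115, 12 and 1480 for Gm47079, which also faces Icam1. Rangrf held 44, 0 and 30 counts against 973, 8 and 1264 for Slc25a35. In these 4 pairs the host was higher per kb in every library, which the choice of contrary pairs had fixed for replicates 1 and 3. In replicate 2 the embedded genes held only 0 or 1 count.

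Gm10337 is embedded in Map3k12, a kinase, with 26, 0 and 43 counts against 7730, 108 and 8998. Map3k12 shares more exonic bases with Pcbp2, an RNA-binding protein, which held 1506, 11 and 566 counts. Rps23-ps1, a ribosomal protein pseudogene, differed least from its host among the 15 contrary pairs with the highest host level. It held 137, 0 and 29 counts against 1648, 14 and 789 for Gm5148, with log2 ratios of -0.39 (adjusted p = 0.0023, exact binomial test) and -1.54 (adjusted p = 1.8e-11) in replicates 1 and 3. Reads of a processed pseudogene can also come from its parent gene, so its counts are uncertain.

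**Figure D4:**
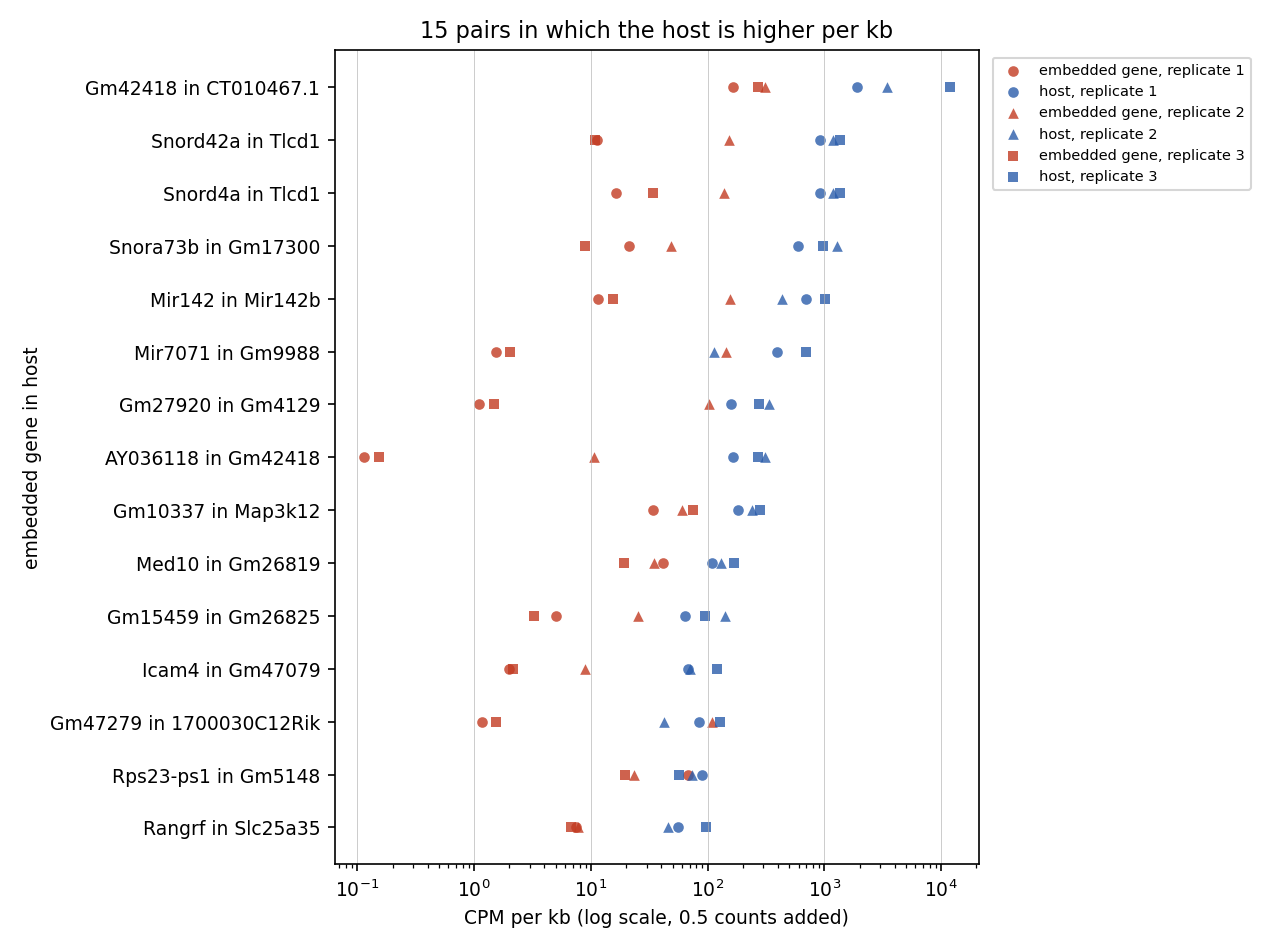
Level in CPM per kb (log scale, 0.5 counts added) of the embedded gene and its host in the 15 contrary pairs with the highest host level, 1 point per gene and library. Hosts lie to the right of the embedded gene in replicates 1 and 3. In replicate 2, where many embedded genes had 0 counts, the added 0.5 counts place some of them high, as for Mir7071.

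The deep libraries differed in level between embedded genes and hosts. Over all 10020 genes with at least 50 counts in both libraries together, CPM in replicate 3 relative to replicate 1 had a median of -0.71 on the log2 scale, with 17.8% at least 1.5-fold higher and 59.9% at least 1.5-fold lower. Of 212 embedded genes with as many counts, 171 were 1.5-fold higher and 5 lower in replicate 3, with a median of 0.78. Of the hosts that are not embedded themselves, 219 had as many counts, with a median of -0.63, and 38 were 1.5-fold higher. Genes with no opposite-strand overlap had a median of -0.84, and 171 of 5857 were 1.5-fold higher. Over all genes 1787 were 1.5-fold higher. Most of these were thus other genes that overlap the opposite strand only in part. A higher level in replicate 3 was therefore not particular to embedded genes. These are single libraries of 1 group, so the differences between them carry no test.

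**Figure D5:**
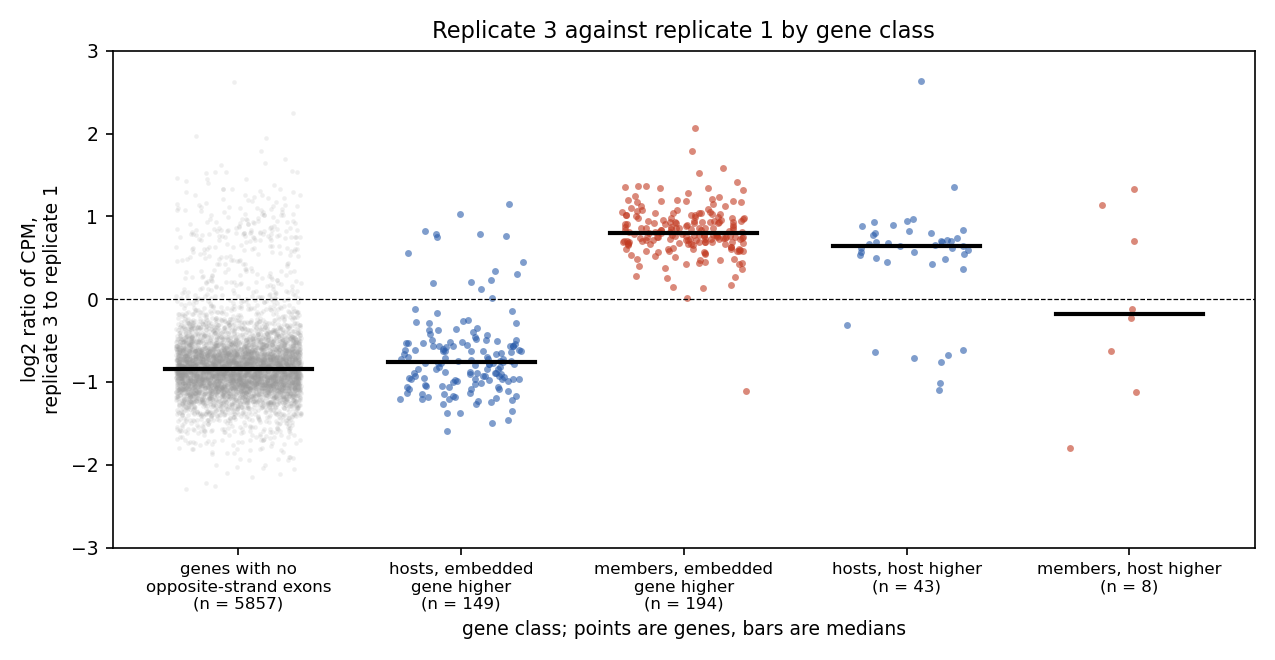
Log2 ratio of CPM in replicate 3 to replicate 1 (0.5 counts added) for genes with at least 50 counts, by group, with a point per gene and a bar at each median. Members in the labels are embedded genes. Embedded genes of majority pairs have a median of 0.80 and their hosts of -0.76, while hosts of contrary pairs have a median of 0.65.

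Within majority pairs the 2 genes moved apart. Of 150 pairs in which both genes had enough counts, the embedded gene was higher and the host lower in replicate 3 in 131, and both were higher in 19. With TMM or DESeq2 scaling, which raise every gene's ratio by 0.46 or 0.56, the first number was 116 or 103. In the 20 pairs with the highest signal, the log2 ratio of replicate 3 to replicate 1 lay between 0.51 and 1.20 for the embedded gene and between -1.45 and -0.26 for the host. With either other scaling, 15 of these 20 hosts remained below 0. For Gm20721 it was 0.66 and for Gnas -0.66. Gm26527 in Arsb, a lysosomal sulfatase, was the only one of 194 majority genes with enough counts that was lower in replicate 3, with 203, 3 and 70 counts and a log2 ratio of -1.11.

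Contrary pairs differed between hosts and embedded genes in another way. Over 43 of their hosts, the log2 ratio of replicate 3 to replicate 1 had its median at 0.65, with 26 at least 1.5-fold higher and 7 lower, while the 8 contrary embedded genes with enough counts were split, with 3 higher and 3 lower. Their median was -0.17, which turned to 0.29 with TMM and 0.38 with DESeq2 scaling. Med10 was at -1.12 and its host Gm26819 at 0.62. In the 24 contrary hosts facing another opposite-strand gene the median was 0.70, with 19 higher and 0 lower. In the 19 without one it was 0.54, with 7 higher and 7 lower. The 23 such partner genes that had at least 50 counts had a median of -0.85, and 18 of them were below 0. Gm5148, the host of Rps23-ps1, was among the exceptions, at -0.64.

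The annotated introns of the embedded genes were compared with those of their hosts. Of 285 introns in 197 embedded genes, 11 had both ends in common with a host intron, 7 of them in Gm20721. The sequence of 150 introns could be read from transcripts that span them. Of these, 112 began with GT and ended with AG, 13 had GC and AG, 1 had CT and AC, and 24 had other ends. The 1 with CT and AC is in Gm20721 and is shared with Gnas. An intron could be read only where an exon of some transcript spans it, and most introns shared with the host were not read. The ends counted here therefore describe mainly introns that are not shared, and the ends of shared introns as a set were not measured. Of the 285 introns, 11 were under 20 bp long. In majority pairs 62 of 83 introns had GT and AG, and in contrary pairs 21 of 24. Of these 21, 15 were in Pdcd2 (8) and Rangrf (7), some of them alternative introns that share an end.

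The polyadenylation signal AATAAA was searched on the transcript strand in the last 50 bases of long non-coding transcripts. It was present in 25 of 220 transcripts of embedded genes (11.4%), against 5516 of 18668 transcripts of other genes (29.5%). Its reverse complement TTTATT was present in 1.82% and 3.94%. These counts describe letters in the annotated ends and were not tested.

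As a check of the labelled cell type, 8 of 8 T cell markers had counts in each library, with summed levels of 1882, 1402 and 962 CPM, and 4 of 4 Th1 markers summed to 226, 277 and 143 CPM. Markers of natural killer and red cells were at 0 in all 3, and Cd8a of the CD8 T cell list and Ms4a1 of the B cell list were at 0. The other CD8 T cell marker held 21, 1 and 13 counts. Of 4 B cell markers, 2 had counts in both deep libraries, and the list held 11, 0 and 24 counts in all. The myeloid list summed to 231, 198 and 453 CPM, all from Csf1r, with Lyz2, Itgam and Adgre1 at 0. The part of other cells in the levels of embedded genes was not tested.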

How the data were processed

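RNA of 3 mouse Th1 libraries was sequenced and counted by the authors. The deposited counts per gene are whole fragments counted with featureCounts 1.4.6-p4 over exons of GENCODE vM13, with strand setting 1 and both ends mapped, per the file headers, on mm10 per the labels. Not given in the sources used here were the aligner's version, the kit and any trimming. The files' Length column, merged exonic bp, was used per kb. Symbols and biotypes came from GENCODE M21, which gave 50376 of 50600 genes a symbol and 568 of the 575 embedded genes. A fragment touching 2 genes of 1 strand is not assigned, and any fragment touching a gene counts.

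Overlaps were computed with bedtools 2.31.1, tests in Python 3.11.15 with scipy 1.17.1, intervals as exact Clopper-Pearson intervals at 95%. Pairs with at least 20 counts were tested; 0.5 counts were added to log ratios. Alternatives used TMM factors of edgeR 4.0.16 and size factors of DESeq2 1.42.0. On simulated counts for the 5184 pairs of replicate 1, the test called 91% of 2-fold and 97% of 4-fold differences and 0.161% of unchanged pairs. A simulation of a single library cannot show the spread between libraries or the strand of real fragments. The text names the 20 pairs with the highest mean embedded level, all of them majority pairs, and the 15 contrary pairs with the highest host level. It also names examples from the lists of host functions, matched by symbol. Other named pairs were chosen after their values were seen. Members and lists were chosen with earlier results of these data known. Some values are not reported here.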

Additional observations from a re-analysis of the deposited data

How the results depend on the processing

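The 13 results were recomputed under the alternatives that apply to each, giving 119 values, of which 93 stayed within the limits set. Without division by length the calls for embedded gene and host were 129 and 132 in replicate 1, where the majority was lost. They were 31 and 16 in replicate 2 and 168 and 104 in replicate 3, and the mean median log2 ratio was 1.15. With members of 300 bp or more, an alternative chosen after seeing the data, the host was higher in 29, 4 and 28 pairs. In replicate 2 the embedded gene was higher in 61 pairs at 10 counts, 9 at 50 and 110 with no minimum, and the host in 15 with members at 75% or more and 4 at 50 counts. Calls for the embedded gene in every library were 59, 9 and 107 under the same 3 minimums, and 35 to 206 when 1 library was left out, the highest without replicate 2. The mean median log2 ratio was 4.39 to 5.11 when 1 library was left out.

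The median ratio of replicate 3 to replicate 1 over embedded genes was 1.24 with TMM and 1.34 with DESeq2 factors, and that of all genes -0.25 and -0.15, or -0.57 with 1 count in each library. The difference of the medians was 1.49, and 1.37 with 1 count in each library. At 2-fold 47 embedded genes were higher. Those lower numbered 2 with DESeq2 factors and 12 with 1 count in each library. No paired analysis was possible because the libraries form 1 group. The depth of replicate 2 limited the tests to 50 pairs, and 270 embedded genes were tested in no library.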
